A study of Saccharomyces cerevisiae with 6 samples.

Results

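The transcriptome described here is that of [gar-] cells of the budding yeast strain W303, which lack the [GAR+] prion, during growth on glucose. It rests on 3 of the 6 samples of the series, the 3 [gar-] cultures, and no value from the other 3, the [GAR+] cultures, was used. All 6 cultures were of this common laboratory strain and grew as free cells in complete synthetic medium with 2% glucose until late exponential phase, at an OD600 of about 0.8, and the labels describe the 3 cultures as grown separately. Poly(A) RNA from each culture was hybridised to 1 Affymetrix yeast array with 9335 probe sets. The platform's annotation of 2016 ties 6504 of these to exactly 1 gene, and 1 probe set was kept per gene, the one with the highest mean, which gave 5656 genes.

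Yeast that is offered ample glucose ferments it to ethanol even in the presence of oxygen. Glucose is phosphorylated by hexokinases and run through glycolysis at a high rate, while a signalling network represses genes for other sugars, for gluconeogenesis, for fat breakdown and, to a varying degree, for respiration. The same signals promote ribosome production, so fast growth and fermentation are both marked by abundant transcripts for ribosomal proteins and glycolytic enzymes. Genes for meiosis and for the opposite mating type are kept off in a growing haploid cell.

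Each deposited signal was divided by the 2% trimmed mean of its array, that is, the mean after removal of 2% of the probe sets at each end. A relative signal of 1 is therefore the trimmed mean of that array. A percentile gives the place of a gene's mean relative signal among the 5656 genes, where 100 is the brightest. Signals of different probe sets do not measure RNA on a common scale: among 212 genes with at least 2 probe sets above the control level, the brightest exceeded the dimmest by a median of 2.95-fold. Ranks and percentiles thus order probe sets, and only approximately transcripts. Among the genes given values below that were above the control level on all 3 arrays, RPS26A, YDR524C-B, SUC2, GLC7, OLI1, COX1, NOP58, RPA190, CPR1, DDR48, IMD4, PMP2, MFA1, ADH4, COS8 and RDN5-1 were over 1.5 times lower on their dimmest probe set. Errors are SD over the 3 cultures (n = 3). With a single group there was no contrast, so no test was made.

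The lower limit was set by 16 control probe sets. They are for murine genes, the trpn gene and the opposite strand of the bioB, bioC, bioD and cre controls. The highest of them reached a relative signal of 0.0859 on the array of culture 1, 0.0677 on that of culture 2 and 0.0429 on that of culture 3. A gene is called detected where it exceeded that level on all 3 arrays, and values below it have no order among themselves. By this rule 4983 of 5656 genes (88.1%) were detected, 271 (4.79%) exceeded the level on no array, and the remainder did so on 1 or 2. Such counts for the lists below are to be read beside these shares of all genes. The 12 bacterial control sets named dap, lys, phe and thr were left out of the limit after they proved bright, with signals up to 2.33. Had they been kept, as the written design has it, 834 genes would have passed on all 3 arrays and 3634 on none, so both counts hang on that choice. The brightest 10% of genes, 566 by construction, began at a relative signal of 3.46.

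The array of culture 2 stood apart from the other pair. The log2 signals of detected genes correlated at 0.984 between cultures 1 and 3, and at 0.965 and 0.964 between culture 2 and either of them. Only 37 detected genes differed over 2-fold between cultures 1 and 3, against 213 between cultures 1 and 2 and 222 between cultures 2 and 3. The low values of culture 2 were unevenly spread over the array's probe set numbers, which largely follow the chromosomes. Of 3176 probe sets above the control level and numbered 5300 to below 9500, 5.42% lay over 2-fold below the mean of cultures 1 and 3, against 0.510% of 3140 with other numbers. The share peaked in the numbers 5500 to below 5800, with 41 of 245 probe sets, of which 220 belong to genes of chromosome V. These ranges were picked after the values were seen. Culture 1 and culture 3 had 0 of those 245 probe sets over 2-fold low. The part of this pattern in any culture 2 value below was not tested, and single genes with a low value in culture 2 are to be read with it in mind.

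**Figure D1:**
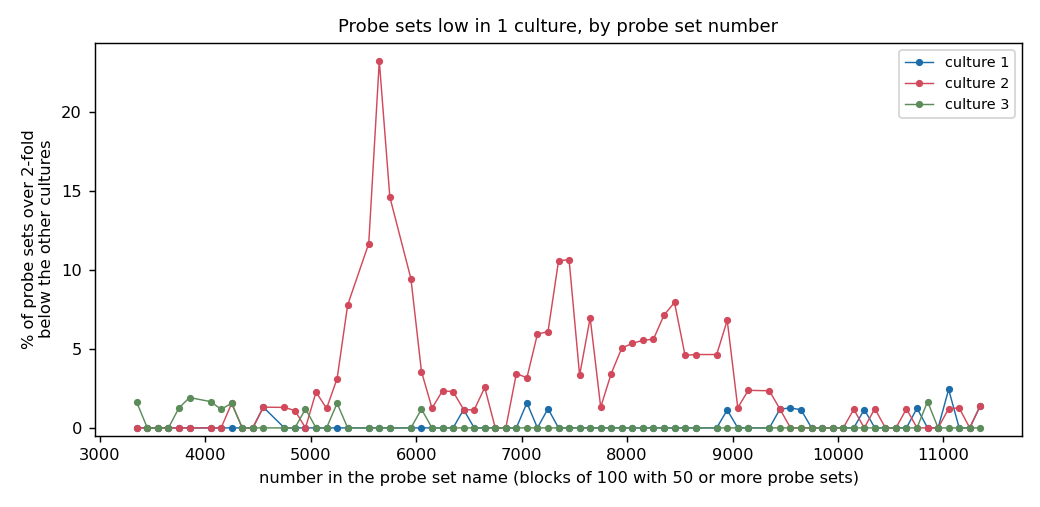
Percentage of probe sets whose log2 signal in 1 culture lies more than 1 below the mean of the other pair (y axis), in blocks of 100 consecutive probe set numbers (x axis), for blocks with at least 50 probe sets above the control level. Lines and points are the 3 cultures; culture 2 rises to 23.3% in the block that starts at 5600 and stays above the others over much of 5300 to below 9500, and cultures 1 and 3 reach at most 2.44% and 1.92%.

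Signal was concentrated in few genes. The median gene had a relative signal of 0.527, and the 95th percentile, at 6.04, was 143 times the 5th. The 100 brightest genes held 23.4% of the summed signal of all 5656 genes, and the 412 brightest held 50%. In single cultures the 100 brightest genes held 22.9%, 23.9% and 23.9%, and any pair of cultures shared 86 to 89 of them. All 3 cultures had 82 in common. Of the 100 brightest genes, 52 encode cytosolic ribosomal proteins, a count that was 38 with plain-suffix probe sets only, 43 with the dimmest probe set of each gene and 46 with the mean of its probe sets, and 11 belong to glycolysis and ethanol fermentation. Another 6 are chaperones and 6 are cell wall proteins or wall enzymes, and 13 stood on none of the 42 gene lists that were drawn up for this description. For 32 of the 100 the probe set carries a suffix that marks sequence shared with other genes or an incomplete set, so their signal may include that of close relatives.

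**Figure D2:**
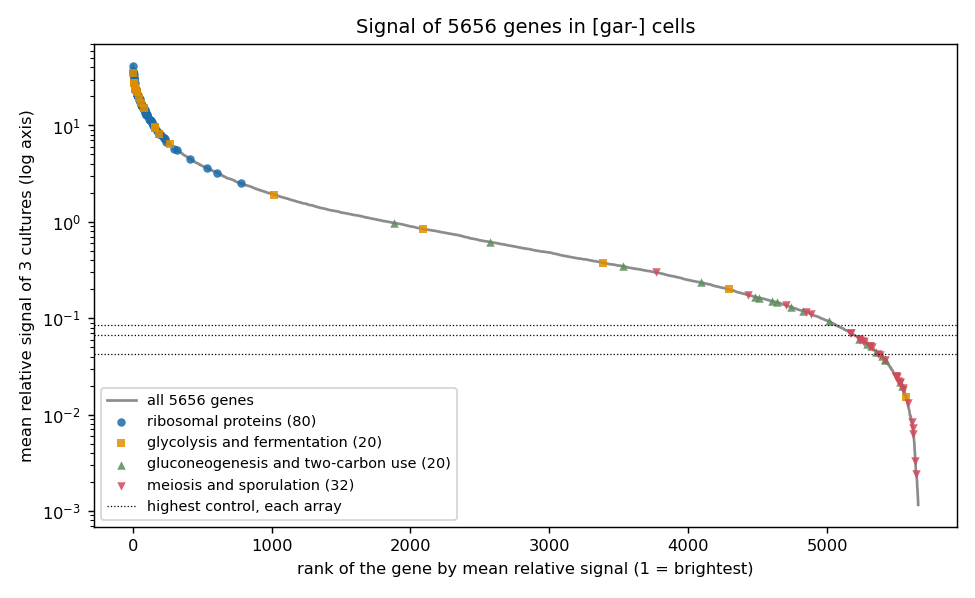
Mean relative signal over the 3 cultures (y axis, log scale) of 5656 genes in order of rank (x axis), with 4 gene lists marked and the number of genes measured in each. Dotted lines mark the highest control probe set of each array. Ribosomal protein genes and most glycolytic genes crowd at the left end, and most genes of meiosis and sporulation lie at or below the dotted lines.

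RPS22A, a protein of the small ribosomal subunit, was the brightest gene, with relative signals of 39.4, 44.4 and 40.8 in cultures 1, 2 and 3 (41.5 ± 2.6). CCW12, a mannoprotein of the cell wall, followed with 38.3, 36.6 and 44.6 (39.8 ± 4.2). The values of RPS22A and CCW12 overlap, so their order is not settled by 3 cultures. The other 18 of the 20 brightest genes lay between 24 and 36.7. They were the ribosomal protein genes RPS21A, RPS21B, RPL21B, RPS3, RPL36A, RPS26A, RPS1A and RPL24B; the glycolytic and fermentative genes TDH3, CDC19, ADH1, FBA1, TPI1 and GPM1; YEF3, the elongation factor found in fungi; ARF1, a small GTPase of vesicle traffic; ASC1, a ribosome-associated protein; and YDR524C-B, an open reading frame known here only by its systematic name. YDR524C-B read 28.6, 26.9 and 29.1, on a probe set whose suffix marks shared sequence. Its plain-suffix set had a mean of 26.55, and a set with the suffix for incomplete sets one of 6.26.

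Glycolysis and ethanol fermentation had a median percentile of 98.8 over 20 measured genes. Its order against the cytosolic ribosomal proteins, at 98.7, is not settled, since the latter stood higher in culture 1. Of the 20 glycolytic and fermentative genes, 19 were detected, 15 were in the brightest 10%, and together the 20 held 3.51% of the summed signal. TDH3, the main glyceraldehyde-3-phosphate dehydrogenase gene, gave 34.8, 32.9 and 37.1. CDC19, which encodes the main pyruvate kinase, gave 26.6, 29.0 and 28.1. ADH1, the alcohol dehydrogenase that forms ethanol, gave 25.1, 28.0 and 30.1. The 3 cultures lay close together for each of these genes. FBA1 (aldolase), TPI1 (triosephosphate isomerase) and GPM1 (phosphoglycerate mutase) had means of 24.6 ± 2.7, 24.5 ± 2.6 and 24.2 ± 2.6. TDH2 had no probe set of its own and was not measured.

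Several steps are encoded by more than 1 gene. For glucose phosphorylation, HXK2, the hexokinase of glucose-grown cells that also takes part in repression, read 8.10, 11.1 and 9.65 (percentile 97.2). GLK1, the glucokinase, read 2.77, 0.855 and 2.11 (percentile 82.0), and HXK1, the glucose-repressed hexokinase, 0.706, 0.371 and 1.45 (percentile 63.0). GLK1 and HXK1 each had their lowest value in culture 2, and HXK1 had a mean of 0.842 ± 0.55. Without culture 3, the mean of HXK1 changed by more than 1.5 times.

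Pyruvate decarboxylase commits pyruvate to ethanol and is encoded by 3 genes. PDC1, the main gene, read 16.0, 17.6 and 17.8 and stood at percentile 99. PDC5, its close relative, read 0.355, 0.418 and 0.357 at percentile 40.1. PDC6 exceeded the control level on no array. For pyruvate kinase, PYK2, the gene of the alternative enzyme, read 0.203, 0.144 and 0.249 at percentile 24.1.

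Among alcohol dehydrogenases, ADH1 stood at percentile 99.8 and ADH3, the mitochondrial enzyme, at 91.0 with 3.75 ± 0.18. ADH4 and ADH5 had means of 0.986 ± 0.14 and 0.551 ± 0.26. On the probe sets kept, ADH2, the glucose-repressed enzyme that oxidises ethanol, was the dimmest of the 5 at 0.136, 0.217 and 0.147. It was yet above the control level on every array. A second plain-suffix probe set of ADH4 had a mean of 0.0296, below that of ADH2, and exceeded the control level on 1 array. ENO1 and ENO2, the enolase genes, read 22.2 ± 1.9 and 23.2 ± 1.9, and both probe sets carry the suffix for incomplete sets, so their near equality does not show that the transcripts were equal. Glycerol formation was represented by GPD1 and GPD2, the glycerol-3-phosphate dehydrogenases, at 1.04 ± 0.23 and 0.333 ± 0.061, and by the phosphatases GPP1 at 12.2 ± 0.31 and GPP2 at 0.572 ± 0.28. GPP2 was another gene with a low value in culture 2, at 0.245 against 0.738 and 0.733. In the pentose phosphate pathway, GND1, TKL1 and TAL1 read 7.81 ± 0.37, 7.62 ± 0.83 and 3.96 ± 0.65, at percentiles 91.5 to 96.3. Their relatives GND2, TKL2 and NQM1 read 0.114 ± 0.012, 0.0813 ± 0.024 and 0.0894 ± 0.018, at percentiles 10.1 to 14.1, and TKL2 exceeded the control level on only 1 array.

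**Figure D3:**
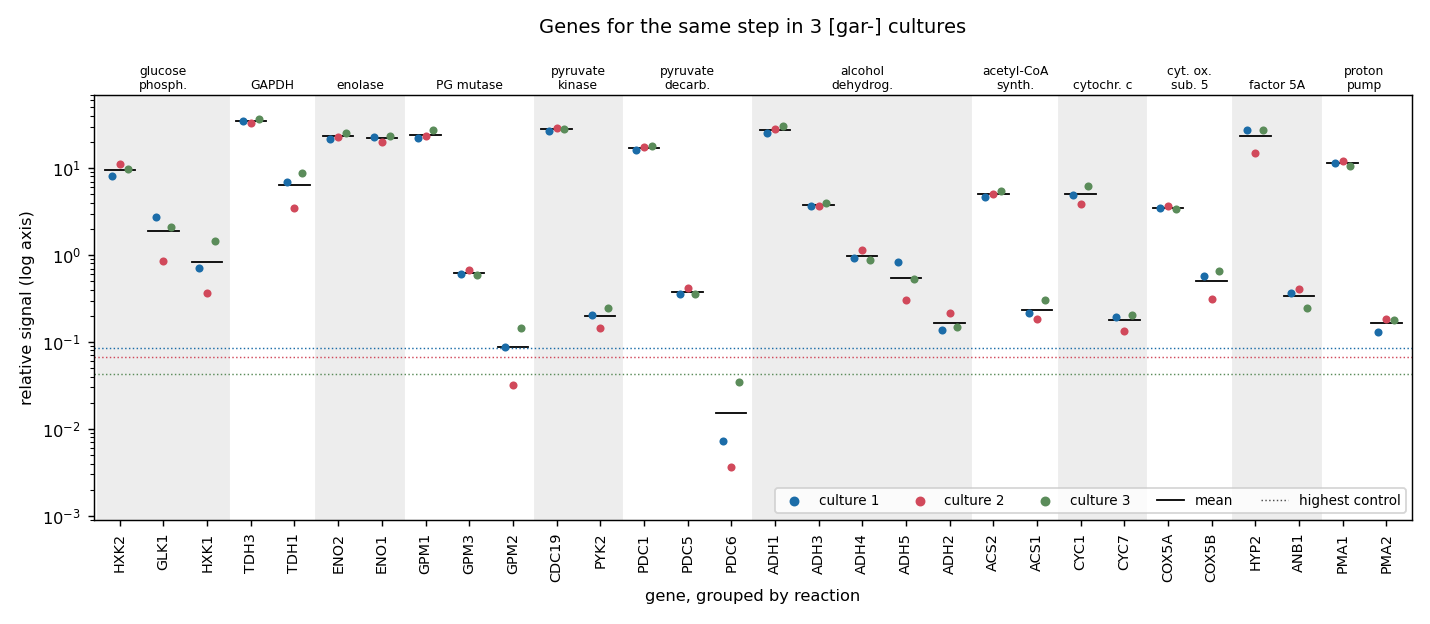
Relative signal (y axis, log scale) of genes that encode the same step or subunit, grouped along the x axis by reaction. Coloured points are the 3 cultures, black bars their means, and dotted lines the highest control probe set of the array of the same colour. PDC6 lies below the dotted lines in each culture, while PDC1, ADH1, CDC19 and GPM1 have means of 17.1 to 27.9.

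Hexose transporters carry glucose across the plasma membrane, and family members differ in the glucose level at which they are used. Of 11 measured genes of the family, 6 were detected, 5 were in the brightest 10%, and 3 exceeded the control level on no array. HXT3, a low-affinity transporter, was the brightest at 14.0, 14.6 and 11.5. HXT1, the low-affinity transporter of high glucose, gave 6.46, 6.07 and 4.40, and HXT2, of higher affinity, 4.03, 6.71 and 5.42. The ranges of HXT1 and HXT2 overlap, whereas those of HXT3 lie above both. HXT6 and HXT7, nearly identical high-affinity transporters whose probe sets share sequence, read 4.55 ± 2.0 and 4.36 ± 1.2. HXT4 stood at 0.833 ± 0.067. HXT5 exceeded the control level on 2 arrays and GAL2, the galactose permease, on 1, while HXT8, HXT10 and HXT14 did so on none. HXT9, HXT11, HXT13, HXT15, HXT16 and HXT17 had no probe set of their own.

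The machinery that senses glucose and imposes repression was present at moderate signal, with a median percentile of 54.7 over 26 genes, 24 of them detected. Besides HXK2, only RAS2, a GTPase of the cAMP pathway, was in the brightest 10%, at 4.22, 2.75 and 4.30. GLC7, the phosphatase catalytic subunit that works with the repression pathway, and BCY1, the inhibitory subunit of protein kinase A, had means of 1.98 ± 0.14 and 1.96 ± 0.19. The repressors MIG2 and MIG3 read 0.164 ± 0.052 and 0.199 ± 0.033. At the bottom of the list, SNF3, the sensor of low glucose, and MTH1, a corepressor of transporter genes, exceeded the control level on 1 array each, with means of 0.0598 ± 0.017 and 0.0777 ± 0.015. Their levels are thus near the limit of this measurement.

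Genes for the use of other sugars lay low. Of 13 genes for galactose, maltose and sucrose, 6 were detected, 2 exceeded the control level on no array, and the median percentile was 10.3. GAL80, the repressor of the galactose genes, was the brightest at 0.646, 0.656 and 0.711. GAL3, the galactose sensor, read 0.122, 0.135 and 0.123. GAL1, galactokinase, exceeded the control level only in culture 3, and GAL10, the epimerase, and IMA1, an isomaltase, in none. The regulators GAL80 and GAL3 were therefore measurable, and the enzymes GAL1 and GAL10 were not above the control level on all arrays. SUC2, invertase, read 0.258, 0.365 and 0.309, but it has other probe sets, 1 of which exceeded the control level on no array, and the brightest was chosen by the rule. MAL12 and MAL32 were not measured.

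Gluconeogenesis, the glyoxylate cycle and the use of acetate and ethanol had a median percentile of 13.0, with 11 of 20 genes detected and 5 above the control level on no array. FBP1, fructose-1,6-bisphosphatase and thus the gluconeogenic counterpart of phosphofructokinase, and CAT8, the activator of these genes, were among those 5, as were SFC1, the mitochondrial succinate-fumarate carrier, and CRC1, the mitochondrial carnitine carrier, and MLS1, malate synthase of the glyoxylate cycle, which was named after its values were seen. ACS1, the acetyl-CoA synthetase of non-fermenting cells, was detected at 0.218, 0.184 and 0.303. ACS2, the isoenzyme used on glucose, read 4.69, 5.10 and 5.50. The pair stood at percentiles 27.7 and 93.7. The brightest genes of the list were ALD4, a mitochondrial aldehyde dehydrogenase, at 0.731, 0.619 and 1.57, and ICL2, a mitochondrial lyase of the propionate pathway, at 0.714, 0.409 and 0.733. No member reached the brightest 10%.

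Peroxisomal fatty acid oxidation had a median percentile of 17.1, with 10 of 15 genes detected. POX1, the oxidase of its first step, and DCI1, an isomerase-like protein, exceeded the control level on no array, and POT1, the thiolase of its last step, did so on 1. PEX11, which helps peroxisomes divide, was the brightest at 1.06, 0.633 and 0.812. The multifunctional enzyme FOX2 read 0.229, 0.234 and 0.284.

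**Figure D4:**
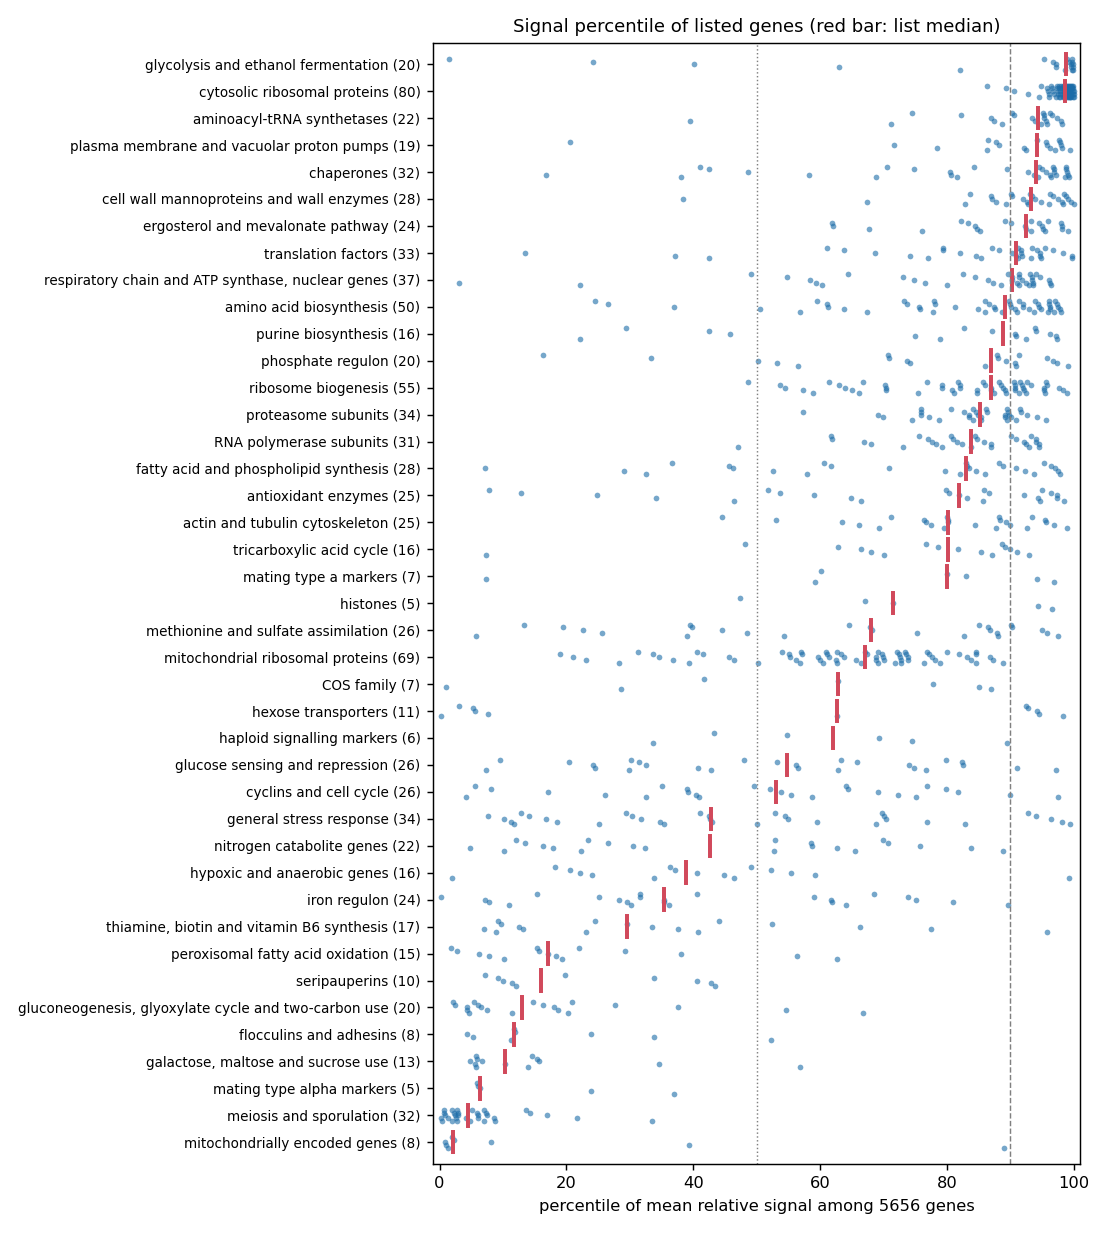
Percentile of mean relative signal (x axis) of every measured gene of 41 lists (y axis, with the number of genes), in order of list median. Blue points are genes and red bars list medians; the dotted line marks percentile 50 and the dashed line percentile 90. Glycolysis (98.8) and cytosolic ribosomal proteins (98.7) have the highest medians, the order of medians below the control level has no meaning, and 28 of the 41 exceed 50.

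Cytosolic ribosomal proteins were the largest single block of signal: their 80 measured genes held 15.3% of the sum, all 80 were detected, and 78 were in the brightest 10%. Their median percentile was 98.7. The exceptions below the brightest 10% were RPS14B, at 2.50, 4.05 and 3.19, and RPL15B, at 2.38, 2.82 and 2.31, and the next lowest were RPL22B (3.64 ± 0.59) and RPL9A (4.50 ± 0.53). Each of these 4 is 1 gene of a duplicated pair. Only 50 of the 80 probe sets have the plain suffix, so signal may be shared between the copies of a pair.

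The rest of the translation apparatus followed. All 33 measured translation factors were detected and 18 were in the brightest 10%, led by YEF3 at 24.5, 27.4 and 25.4. HYP2, the translation factor 5A of aerobic cells, read 27.4, 15 and 27.1, and was lower in culture 2 than in the other pair. ANB1, its counterpart of oxygen-starved cells, read 0.367, 0.404 and 0.243. EFB1, an exchange factor of elongation, had a mean of 13.2 ± 2.5. HEF3, a relative of YEF3, was the dimmest factor at 0.107 ± 0.017. The genes of elongation factors 1A and 2 and of initiation factor 4A, TEF1, TEF2, EFT1, EFT2, TIF1 and TIF2, share probe sets and were not measured.

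All 22 aminoacyl-tRNA synthetase genes were detected with a median percentile of 94.3, and 15 were in the brightest 10%. FRS1, a subunit of the phenylalanine enzyme, was the brightest at 12.4, 12 and 11.7, with its cultures close together. THS1, the threonine enzyme, and KRS1, the lysine enzyme, had means of 11.6 ± 2.2 and 7.98 ± 0.19. GRS2, a second glycine gene, was the dimmest at 0.367 ± 0.015. All 55 ribosome biogenesis genes were detected as well, 20 of them in the brightest 10%. Proteins of small nucleolar particles headed that list, NOP58 at 16.2 ± 1.5, NHP2 at 13.3 ± 1.7 and GAR1 at 10.8 ± 2.4, while UTP4, of the small subunit processome, closed it at 0.502 ± 0.11. NOP58 was read on a shared probe set, and its plain-suffix set had a mean of 9.44, below those of NHP2 and GAR1. Subunits of the nuclear RNA polymerases numbered 31, all detected, with a median percentile of 83.7. RPA190, the largest subunit of polymerase I, read 5.57, 6.42 and 4.81 on the brightest of its 7 probe sets, whose means ran down to 0.0327, below the control level, and RPB8, shared by all 3 polymerases, 5.31, 5.67 and 5.83.

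Mitochondrial ribosomal proteins formed a contrasting group. All 69 were detected, but 0 were in the brightest 10%, and their median percentile was 67.1. RSM7 was the brightest at 3.44, 2.38 and 3.52, and MRP35 the dimmest at 0.140, 0.117 and 0.202. Both were lowest in culture 2. In that culture the 69 genes had a median deviation of -0.33 (log2) from their own means over the cultures, against 0.11 and 0.23 in cultures 1 and 3. The deviation in culture 2 was -0.47 over 44 genes with probe set numbers 5300 to below 9500 and -0.23 over the 25 with other numbers. For all detected genes, the corresponding medians in culture 2 were -0.07 and 0.07.

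Respiratory genes of the nucleus were not low in these glucose-grown cells. Of 37 genes for the respiratory chain and ATP synthase, 36 were detected, 19 were in the brightest 10%, and the median percentile was 90.2. QCR7, a subunit of the cytochrome bc1 complex, read 8.32, 6.75 and 8.51. COX12, a subunit of cytochrome oxidase, read 7.44, 6.91 and 7.69, and TIM11, a subunit of ATP synthase, 7.38, 8.01 and 7.47. Small subunits of 3 complexes thus led the list. Isoform pairs were spaced apart here too: CYC1, the main cytochrome c, stood at 4.98 ± 1.2 and CYC7, the hypoxic one, at 0.178 ± 0.04, and COX5A and COX5B, subunits of cytochrome oxidase used with and without oxygen, at 3.49 ± 0.16 and 0.509 ± 0.18. NDE2, an external NADH dehydrogenase, exceeded the control level on 1 array.

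The tricarboxylic acid cycle had 15 of 16 genes detected and a median percentile of 80.1. LPD1, the lipoamide dehydrogenase shared by several complexes, read 5.62, 3.63 and 4.71, and IDH2, a subunit of isocitrate dehydrogenase, 3.97, 3.15 and 4.17. CIT1, the mitochondrial citrate synthase, read 3.03, 1.46 and 2.61, and its peroxisomal counterpart CIT2 4.21, 2.88 and 2.15. CIT3 exceeded the control level on 1 array. SDH1, the flavoprotein subunit of succinate dehydrogenase, was the dimmest detected gene named, at 0.497 ± 0.06. For the cycle as a whole, 14 of the 15 detected genes lay below their own mean in culture 2, against 2455 of all 4983 detected genes. The median deviation there was -0.45 (log2) over the 8 genes with probe set numbers 5300 to below 9500 and -0.05 over the 7 with other numbers.

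Mitochondrially encoded genes had a median signal below the control level. Of 8 measured genes 2 were detected, OLI1, a subunit of ATP synthase, at 3.08, 3.69 and 2.66, and COX1, a subunit of cytochrome oxidase, at 0.389, 0.308 and 0.395. COX2, COX3, COB, VAR1 and ATP8 exceeded the control level on no array. The probe sets of a single gene disagreed, since OLI1 and COX1 each had another probe set below the control level. The RNA was selected for poly(A) tails before labelling, and these values describe that fraction only.

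The cell surface was prominent. Of 28 genes for cell wall mannoproteins and wall enzymes, all were detected and 20 were in the brightest 10%. After CCW12 came CWP2, another mannoprotein, at 20.2, 22.3 and 25, ECM33, a membrane-anchored protein needed for wall integrity, at 16.2, 18.0 and 17.9, and GAS1, which remodels wall glucan, at 14.7, 15.6 and 16.4. PIR3 was the dimmest at 0.355 ± 0.082. Other bright genes of this area stood on no list: PSA1, which makes the GDP-mannose used to build mannoproteins, at 16.3 ± 1.8, and NCW1, a wall protein read on a shared probe set, at 15.7 ± 1.5.

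Adhesins, by contrast, had a median percentile of 11.8 over 8 genes. FLO1 and FLO5, the flocculins, exceeded the control level on no array with the probe sets kept, and FLO11, needed for filaments and mats, did so on 2. Other probe sets of FLO5 exceeded that level on 1 array each. AGA1, the anchor subunit of the mating agglutinin, was the brightest at 0.590, 0.619 and 0.508. The labels describe the cultures as planktonic.

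Proton pumps had a median percentile of 94.1 over 19 genes, all detected. PMA1, the plasma membrane proton pump, read 11.5, 12 and 10.5, and PMA2, its minor isoform, 0.131, 0.185 and 0.179. PMP2, a small regulator of PMA1, was the brightest at 20.4 ± 1.7, on a probe set with the suffix for incomplete sets. The vacuolar pump subunits VMA10 and VMA3 followed at 12.1 ± 0.92 and 11.5 ± 1.6. Sterol synthesis was similarly bright: all 24 ergosterol and mevalonate genes were detected and 14 were in the brightest 10%. ERG2 read 17.1, 19.1 and 18.1, ERG25 11.9, 14.6 and 10.7, ERG3 11.6, 12.7 and 12, and ERG11, the target of azole drugs, 11.5, 13.0 and 10.4. Of the HMG-CoA reductases, HMG1 had a mean of 4.77 ± 0.47 and HMG2 one of 0.812 ± 0.12.

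In fatty acid and phospholipid synthesis, 27 of 28 genes were detected, with a median percentile of 83.0. OLE1, the fatty acid desaturase, read 9.26, 14.9 and 10.3, and ACC1, acetyl-CoA carboxylase, 7.90, 11.9 and 7.67. Both were highest in culture 2. INO1, which makes inositol phosphate and is repressed by inositol, exceeded the control level on 1 array only. The list of hypoxic and anaerobic genes had a median percentile of 38.9 over 16 genes, and DAN1, an anaerobic wall protein, exceeded the control level on no array. CPR1, cyclophilin, was the bright exception of that list at 19.4 ± 1.0, read on a shared probe set. Plain-suffix sets of CPR1 had means of 19.4 and 12. The gene stands on the chaperone list too, and whether it responds to oxygen was not tested, since the cultures shared 1 condition. HEM13, the heme synthesis enzyme raised without oxygen, read 0.665, 0.819 and 0.424.

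Biosynthetic genes for amino acids and purines stood high in the complete medium. All 50 measured amino acid genes were detected, 23 were in the brightest 10%, and the median percentile was 89.2. ARO2, chorismate synthase, read 11.9, 12.6 and 10.1. HOM6, homoserine dehydrogenase, read 10.2, 11.9 and 11.9, and GLN1, glutamine synthetase, 11.6, 8.53 and 10.02. At the other end stood the arginine genes ARG8 (0.202 ± 0.06) and ARG3 (0.224 ± 0.094) and SER3 (0.336 ± 0.19), of serine synthesis. All 16 purine genes were detected; GUA1 and IMD4, of the guanine branch, led at 9.74 ± 0.89 and 9.33 ± 0.48. ADE17 and ADE4 were the dimmest at 0.178 ± 0.087 and 0.250 ± 0.05.

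The sulfur pathway was split. Of 26 genes for methionine synthesis and sulfate assimilation 25 were detected, and 5 were in the brightest 10%: the 4 brightest were MET17, which fixes sulfide (10.2 ± 1.1), CYS4 and CYS3 of transsulfuration (6.95 ± 0.83 and 5.93 ± 0.34) and SAH1 of the methyl cycle (3.50 ± 0.13). SAM1, S-adenosylmethionine synthetase, named after its values were seen, was the fifth at 3.47 ± 0.58. The sulfate permease SUL1 exceeded the control level on 1 array, and SUL2 read 0.183 ± 0.054. MET6, methionine synthase, had the fourth largest spread of all detected genes, with 3.14 and 3.16 in cultures 1 and 3 against 0.713 in culture 2, and its probe set is numbered 5620.

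The phosphate regulon, which yeast raises when phosphate runs short, was bright here. All 20 measured genes were detected, 7 were in the brightest 10%, and the median percentile was 86.9. PHO84, the high-affinity phosphate transporter, read 14.2, 19.9 and 17.6. PHO5, the secreted acid phosphatase, read 5.0, 12.1 and 7.77, and VTC1, of vacuolar polyphosphate synthesis, 7.87, 11.7 and 9.6. All 3 were lowest in culture 1 and highest in culture 2. PHO3, the constitutive acid phosphatase that thiamine represses, hardly varied, at 6.71, 6.77 and 6.77. PHO89, a second phosphate transporter, stood at 0.205, 0.913 and 0.477, in the same order of cultures as PHO5.

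Other nutrient regulons lay lower. Of 22 nitrogen catabolite genes 19 were detected, where 88.1% of all genes were, and 0 were in the brightest 10%. Their median percentile was 42.6, which was 53 without probe sets numbered 5500 to below 5800. GAP1, the general amino acid permease, was the brightest at 3.17, 3.15 and 2.93, and DUR3, a urea transporter, exceeded the control level on no array. Of 24 iron regulon genes 20 were detected, with a median percentile of 35.4, and FRE5, a reductase-like gene, exceeded the control level on no array. FET3, the multicopper oxidase of iron uptake, read 1.80, 4.37 and 3.85 and its partner FTR1 1.28, 2.32 and 1.77, both lowest in culture 1. Vitamin genes had a median percentile of 29.6: THI4, of thiamine synthesis, exceeded the control level on 1 array, with a mean of 0.0749 ± 0.022.

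Markers of cell type were separated. Of 7 markers of mating type a, 6 were detected, a share near the 88.1% of all genes, so the levels carry the description here. MFA2 and MFA1, which encode a-factor, read 9.30, 8.24 and 8.42, and 7.81, 4.70 and 3.86; STE2, the receptor for alpha-factor, read 1.76, 2.50 and 1.80, and BAR1, the protease that degrades alpha-factor, 1.75, 1.64 and 1.73. ASG7 was the exception, above the control level on 1 array. The probe set used for MFA1 shares sequence with other genes, and another probe set of the gene read lower.

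Of 5 markers of mating type alpha, the defining ones were near the control level: MF(ALPHA)1, MF(ALPHA)2 and STE3, which encode alpha-factor and the receptor for a-factor, exceeded it on 1 array each, with means of 0.0515 ± 0.023, 0.0499 ± 0.0033 and 0.0532 ± 0.011. AFB1 and SAG1 were detected at 0.336 ± 0.069 and 0.196 ± 0.013. The labels do not give a mating type. All 6 haploid signalling genes were detected, where 88.1% of all genes were. STE4, the beta subunit of the pheromone G protein, read 3.16, 3.63 and 3.01 and STE18, its gamma subunit, 0.273, 0.273 and 0.355.

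Meiosis and sporulation was the largest silent list. Of 32 genes, 17 exceeded the control level on no array, where 4.79% of all genes fell, 11 did so on 1 or 2, and 4 were detected. SPO11, which makes the meiotic DNA breaks, the recombination gene REC114, and DIT2 and CDA1 of the spore wall were among the 17. The 4 detected genes were SSP1, of the spore membrane's leading edge, at 0.314, 0.371 and 0.209, IME1, the inducer of meiosis, at 0.164, 0.227 and 0.132, NDT80, the activator of middle meiotic genes, at 0.126, 0.153 and 0.130, and ZIP1, of the synaptonemal complex, at 0.121, 0.0992 and 0.111. ZIP1 lies outside the naming rule and was named after its values were seen. RED1, of the chromosome axis, exceeded the control level on 2 arrays.

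Genes tied to cell cycle phases had a median percentile of 53.0, with 23 of 26 detected, where 88.1% of all genes were. CTS1, the chitinase of cell separation, was the brightest at 10.9, 9.94 and 11, and EGT2 and ASH1, also of late division and early G1, had means of 3.40 ± 0.60 and 1.88 ± 0.15. CLB6, an S phase cyclin, exceeded the control level on no array, and CDC6, which loads replication origins, did so on 1. Among histone genes HTB1 and HTB2, for histone H2B, read 8.18 ± 0.46 and 5.50 ± 0.60, and CSE4, for the centromeric variant, 0.487 ± 0.019. ACT1, actin, read 16.2, 15.4 and 17.8, and the tubulin genes TUB2, TUB3 and TUB1 had means of 4.40 ± 0.31, 3.24 ± 0.20 and 2.96 ± 0.18.

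Stress genes were mixed in level and varied more between cultures than any other list, with a median SD of 0.51 in log2. Of 34 genes of the general stress response 31 were detected, 5 were in the brightest 10%, and the median percentile was 42.7. HOR7 and DDR48 stood high, at 20.4, 16.8 and 22.4 and at 13.7, 11.3 and 12.3, and HSP12, a small membrane-associated heat shock protein, read 5.89, 4.08 and 13.7. A second probe set of DDR48 had a mean of 2.57, under the 3.46 at which the brightest 10% begin. PNC1, of NAD salvage, and YGP1, a secreted glycoprotein named after its values were seen, completed the 5 at 5.27 ± 2.2 and 4.54 ± 1.1. At the low end stood RTN2, which exceeded the control level on 1 array, the aldehyde dehydrogenases ALD3 and ALD2 at 0.0911 ± 0.011 and 0.0951 ± 0.0096, and CTT1, cytosolic catalase, at 0.180, 0.083 and 0.0504.

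Most stress genes lay below their own mean in culture 2. The median deviation of the 31 detected genes from their own means was -0.46 (log2) in culture 2, against 0.20 and 0.19 in cultures 1 and 3, and 30 of the 31 lay below their mean there, against 2455 of all 4983 detected genes. By probe set number it was -0.47 over the 12 genes outside 5300 to below 9500, all 12 below their mean, and -0.45 over the 19 inside. That range was picked after the values were seen, and the cause of the deviation was not tested. Without culture 2 the list's median percentile moved by more than 5 points.

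Chaperones were likewise low in culture 2, with a median deviation of -0.41, which was -0.58 over the 21 genes inside that range of numbers and -0.28 over the 11 outside it. All 32 measured genes were detected, 18 were in the brightest 10%, and the median percentile was 94.0. SSA2, a cytosolic Hsp70, read 15.9, 12.3 and 23.6, and EGD2 and EGD1, of the nascent chain complex on ribosomes, had means of 16.2 ± 2.3 and 16.1 ± 2.0. SSA3 and SSA4, Hsp70 genes of stressed cells, had means of 0.135 ± 0.035 and 0.389 ± 0.15. HSP82, the inducible Hsp90, had the largest spread of all detected genes, an SD of 1.51 in log2, at 1.86, 0.407 and 3.04, on a probe set with the suffix for incomplete sets. Proteasome subunits, all 34 detected at a median percentile of 85.1, and antioxidant enzymes, led by the peroxiredoxin TSA1 at 12.6, 12.9 and 15.8, also lay a little lower in culture 2, with median deviations of -0.19 and -0.17. For proteasome subunits the deviation was -0.32 over the 23 genes inside that range of numbers and -0.12 over the 11 outside it. For antioxidant enzymes it was -0.23 over the 11 inside and -0.09 over the 13 outside.

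**Figure D5:**
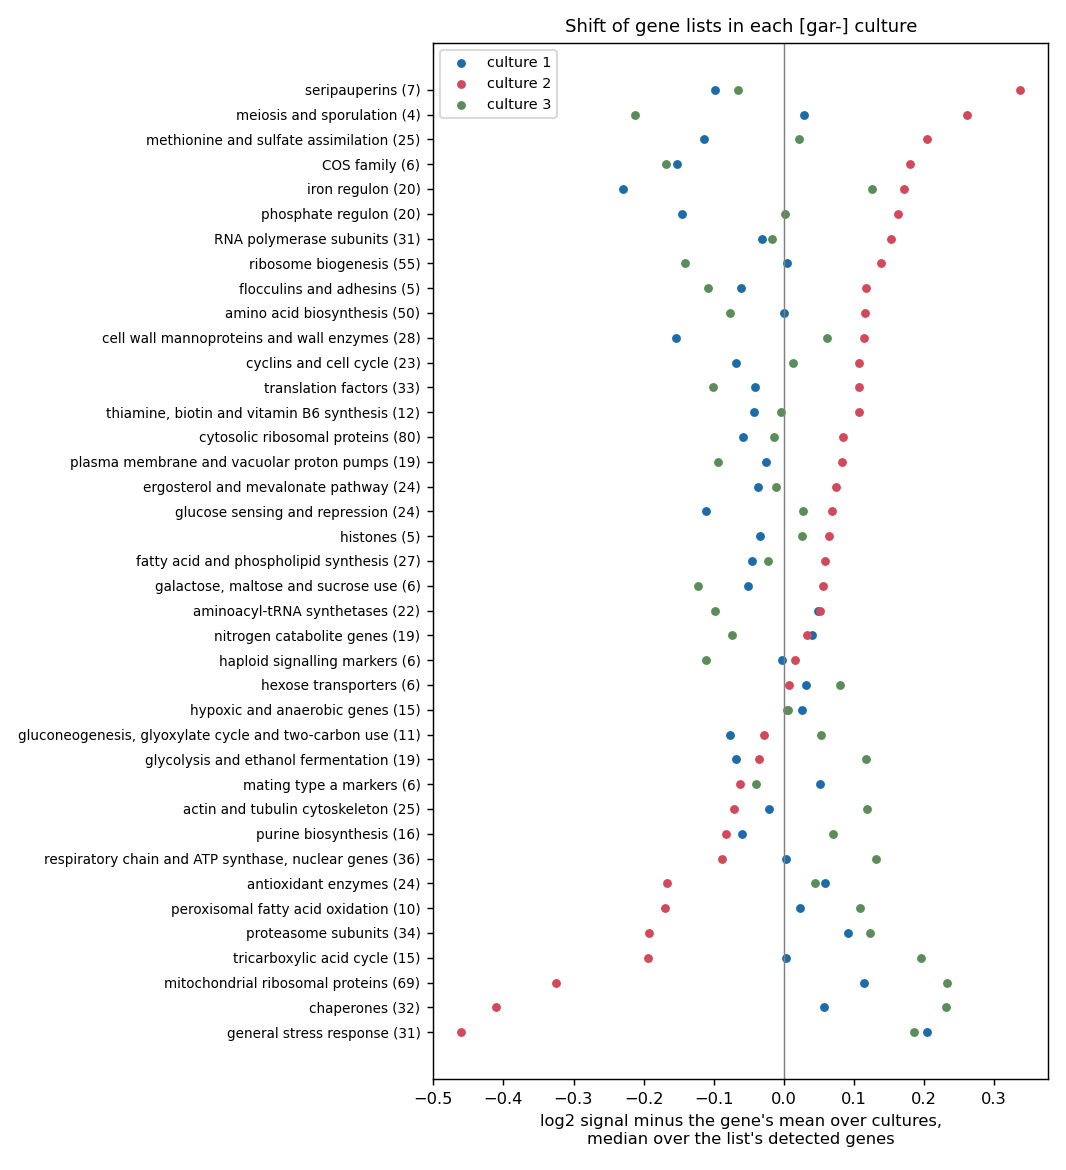
Median over the detected genes of each list of the gene's log2 signal minus its own mean over the 3 cultures (x axis), for the 39 lists with at least 4 detected genes (y axis, with their number). Coloured points are the 3 cultures. In culture 2 the general stress response lies lowest at -0.46 and the seripauperins highest at 0.34.

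For most genes the cultures lay close together. The SD of log2 signal over the 3 cultures had a median of 0.21 over the 4983 detected genes, with quartiles of 0.13 and 0.32, which corresponds to a median coefficient of variation of 14.6%. It was 0.19 above percentile 80 and 0.24 between percentiles 20 and 40. An SD above 1 was seen in 27 genes. Of the 10 genes with the largest SD, HSP82, BTN2 and HSP42 lie elsewhere in the genome, and the other 7 were PET117, TIM9, MET6, SPF1, MNN1, CEM1 and OXA1, all of chromosome V and all with probe set numbers of 5500 to below 5800. TIM9, a small chaperone of the mitochondrial intermembrane space, read 3.02, 0.642 and 2.75, and OXA1, the insertase of the inner membrane, 1.76, 0.405 and 1.59. In each of the 10 genes culture 2 had the lowest value.

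Families near chromosome ends were read largely on shared probe sets. All 10 measured seripauperin genes carry the family suffix, 7 were detected, and their median percentile was 15.9, with PAU13 the brightest at 0.352, 0.523 and 0.384. Of 7 measured COS genes 6 were detected, COS8 at 3.62, 2.31 and 1.97, COS4 at 2.54, 2.21 and 2.25 and COS6 at 1.29, 2.00 and 1.27, while COS12 exceeded the control level on no array. The COS median of 62.9 fell below percentile 50 when the dimmest probe set or the mean of all probe sets of a gene was used.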

How the data were processed

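The [gar-] cultures of the series, 3 separately grown cultures per the labels, were analysed with 1 array each. The deposited signals are linear and were produced with MAS5 and GCOS, the tools that the submitters' processing notes name. No version, scaling target or detection call is given in the sources used here. The trimmed means of the deposited signals were 295, 295 and 250, so each array was divided by its own. Of 9335 probe sets, 6504 had 1 gene, 328 several and 2503 were unnamed in the platform annotation of 2016, including 60 control sets. All 6504 were matched to the RefSeq gene table of assembly R64 and 0 symbols changed. The files name no genome build, so no coordinates are given, and no sequences are printed.

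The control level was taken from 16 control probe sets, those for murine genes, the trpn gene and the opposite strand of bioB, bioC, bioD and cre. An opposite-strand set was the highest on each array, of bioD in cultures 1 and 3 and of cre in culture 2. The written design leaves out only the spiked bioB, bioC, bioD and cre controls, which was applied to their sense-strand sets. The dap, lys, phe and thr sets were left out too after their values were seen. Named genes are the 20 brightest; all members of lists of up to 12 genes, otherwise the 4 highest and 4 lowest; the 10 detected genes of largest SD; all members of 25 isoenzyme sets; and the 5 brightest remaining genes on no list, 382 in all. Of the 42 lists, that of telomeric helicase-like genes had 0 measured members. Members and lists were chosen with earlier results of these data known. Wrong entries in the lists (SSB1 read as SBP1, PPA1 as IPP1, RRS1, CTF19, YMR31, MRP8 and COS111) were corrected after values had been seen. With 1 group there is no test; the spread rests on 3 arrays, whose number limits the precision. The steps were tested on simulated data, with silent probe sets placed well below the highest control and bright ones well above it. That test says nothing on detection near the control level. Computation used Python 3.11.15, numpy 2.4.6, pandas 2.3.3 and scipy 1.17.1.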

Additional observations from a re-analysis of the deposited data

Results flagged for a closer look

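Signal was present in probe sets that the account of 5656 genes leaves out. Of 2443 probe sets for which the annotation gives no gene and which are no controls, 714 (29.2%) exceeded the highest control on all 3 arrays, and 142 of them were as bright as the brightest 10% of genes. The brightest read 23, 19 and 25.3 in cultures 1, 2 and 3 (22.4 ± 3.2, SD, n = 3). What these probe sets detect was not tested, because they are unnamed in the annotation used.

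Of 328 probe sets that the annotation ties to several genes, 252 (76.8%) exceeded that level on all 3 arrays, 137 of them as bright as the brightest 10% of genes. The brightest had a mean of 34.5 ± 2.9. Genes reached only by such probe sets are missing from the counts above, among them TDH2 and the elongation factor genes TEF1 and TEF2.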

How the results depend on the processing

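The count of detected genes, the share and the ribosomal protein count of the 100 brightest genes, the 28 of 41 lists with a median percentile above 50, the median SD and the 190 of 382 named genes with a mean above 1 were recomputed under each alternative. The summaries of lists above 50 and of named genes above 1 were chosen after the data were seen. Most depends on the controls. With the controls of the written design, 834 genes were detected and 3634 exceeded the level on no array; the latter count was 110 with murine and trpn controls alone, 28 against the median control and 571 against 2 times the highest control. Leaving out each culture in turn gave 271 to 469 genes above the level on no array, the highest without culture 3, and a median log2 SD of 0.13 to 0.20, the lowest without culture 2 (0.132). That SD was 0.2555 without scaling. The 100 brightest genes held 24.28% of the signal without probe sets numbered 5500 to below 5800, a setting added after the data were seen. The ribosomal protein count of 52 was 38 with plain-suffix probe sets, also added later, 43 with the dimmest and 46 with the mean probe set. Between 0 and 9 lists moved by over 5 percentile points in a setting, and 0 to 2 crossed percentile 50, among them the nitrogen catabolite genes without numbers 5500 to below 5800. The dimmest probe set of each gene in place of the brightest moved 26 detected named genes by over 1.5 times. The cause of these shifts was not tested. No paired analysis was possible because the account covers 1 group and makes no comparison.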

Other observations

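Other classes of genes fell at different levels. Of 91 tRNA genes with a probe set of their own 79.1% were detected, and of 57 small nucleolar RNA genes 61.4%, against 88.6% of 5486 protein-coding genes. RDN5-1, a 5S ribosomal RNA gene, read 20.8, 18.6 and 15.5, although the RNA had been selected for poly(A) tails; its probe set has the suffix for incomplete sets. Of 11 pseudogenes 6 were detected.

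Protein-coding genes with a systematic name only were more often dim. Of 444 such genes 67.6% were detected and 18.2% exceeded the control level on no array, against 90.5% and 3.29% of 5042 genes with a gene name. Among them 24 were in the brightest 10%, headed by YDR524C-B and YCR024C-B, the latter named after its values were seen, at 12.2, 11.6 and 11.2.

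Genes at chromosome ends were dim as a group. Of 201 measured genes among the 10 outermost of each end, 70.6% were detected and 16.9% exceeded the control level on no array, with a median percentile of 24.8. For the 5266 other nuclear protein-coding genes these values were 89.6%, 3.74% and 51.9. ZUO1, a ribosome-associated chaperone, was the brightest end gene at 8.67, 10.1 and 7.83, followed by HSP31 at 9.66, 5.42 and 8.48; both were named after their values were seen.

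Bright genes tended to be short. The median length in the annotation was 961 bases for protein-coding genes in the brightest 10%, 1038 without ribosomal proteins, and 1250 for all 5486. Genes above the control level on no array had a median of 870 bases, so the dim end was short as well. Over 4862 detected protein-coding genes, Spearman's rho of length and signal was -0.215, as a description across genes that share 3 arrays.

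The array carries separate control probe sets for 5 yeast transcripts, 4 of which lie on chromosome V. For RIP1 the control set read 1.97, 1.17 and 1.97 and the gene's own set 2.77, 2.06 and 2.78. For SPT15 they read 5.21, 4.002 and 5.48 and 3.77, 3.19 and 3.09. The URA3 sets read 3.08, 2.21 and 3.00 and 2.67, 2.67 and 2.12, and those of WBP1 1.75, 1.39 and 1.89 and 5.62, 3.25 and 4.58. The ACT1 sets read 9.22, 11.97 and 11.35 and 16.2, 15.4 and 17.8. Both sets were lowest in culture 2 for RIP1 and WBP1, but not for the other genes. The signal ratio of the 3′ to the 5′ control set of SPT15 was 2.98, 1.85 and 2.82 and that of ACT1 1.64, 1.17 and 1.42, lowest in culture 2 in both cases. The part of this in the low values of culture 2 was not tested.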
